A study of Mus musculus with 8 samples.

Results

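Bile duct cells form a small part of the liver, and the genes described here are those commonly used to mark them and the progenitor cells that can give rise to ducts: Krt7, Krt19, Epcam, Spp1, Sox9, Cldn7 and Cd24a. All probe sets that the platform annotation assigned to 1 of these symbols and to no other gene were taken, on every array. The rule found 11 probe sets for 6 of the 7 genes, among 18193 genes with a probe set of their own on the array. Spp1 was not analysed here. Whole livers of WT mice aged 3, 12 and 19 months and of Sirt1-null (MT) mice aged 3 months were profiled with 2 arrays per group, 8 arrays in all. All mice were on the mixed 129/FVB/Black Swiss background, were killed in the morning and had their blood drained before the liver was taken. MT mice lack part of Sirt1, a NAD-dependent deacetylase, in all cells from conception, and few such animals reach adulthood, so the MT livers came from survivors. The labels do not say whether an array held RNA of 1 mouse or of several, so the p-values below measure the spread between these arrays, which may be technical.

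Cholangiocytes, the epithelial cells that line bile ducts, contain the keratins encoded by Krt7 and Krt19 beside those shared with hepatocytes. They are joined by adhesion and tight junction proteins such as EpCAM and claudin 7, and they express the transcription factor SOX9. Liver progenitor cells, which expand from the ducts when hepatocytes cannot replace themselves, carry many of the same proteins, among them CD24. In RNA from whole liver, fewer cells of a type and less RNA per cell cannot be told apart.

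Values are MAS5 signals on the authors' linear scale, on which the median probe set of an array lay between 74.5 and 82.8. A signal under the median of its own array is called low here; no detection calls were used, so a low signal says little on whether the transcript was present. The 3 Xist probe sets ranked at or above the 95.2 percentile on every array, and the 9 probe sets of Y-linked genes at or below the 43.1 percentile, whereas the study's methods call the mutant mice male. The Sirt1 probe set 1418640_at, for which no position relative to the deleted part was at hand, read 589 and 539 in WT at 3 months and 615 and 713 in MT, so it does not check the genotype and the MT group rests on the labels. The 8 hepatocyte genes of the marker list (among them Alb and Ttr) were above the median on all arrays.

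Of the member promoters at hand, that of Epcam holds an E-box, the element that the clock proteins CLOCK and BMAL1 bind, and it is shown because the study concerns Sirt1 and the clock. RefSeq promoter windows of 300 bases (GRCm38.p6) were at hand for 3 member genes, Cldn7 with 2 windows and Krt7 and Epcam with 1 each. The letters CACGTG, which read the same on both strands, stood at positions 31 to 36 counted from the Epcam start, in the 30 bases at chr17:87635997-87636026 on the plus strand, with the motif in capitals.
Epcam: ggactgattctgCACGTGagacctgcggcg
Of all 32851 windows of this length, 2349 (7.15%) hold the motif. The match describes these letters only, and the Krt7 and Cldn7 windows do not contain them.

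Most bile duct and progenitor markers gave little signal in these livers. Of the 88 member signals, 57 were low, and the highest was 255. The members ranged from the 10.4 to the 69.8 percentile of all probe sets on an array. The number of low member signals among 11 was 10 and 9 on the WT arrays of 3 months, 9 and 6 at 12 months, 7 and 6 at 19 months, and 6 and 4 in MT. Only 1 probe set, Cd24a 1448182_a_at, was above the median on all 8 arrays, and 2 probe sets of Sox9 were low on all 8.

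**Figure D1:**
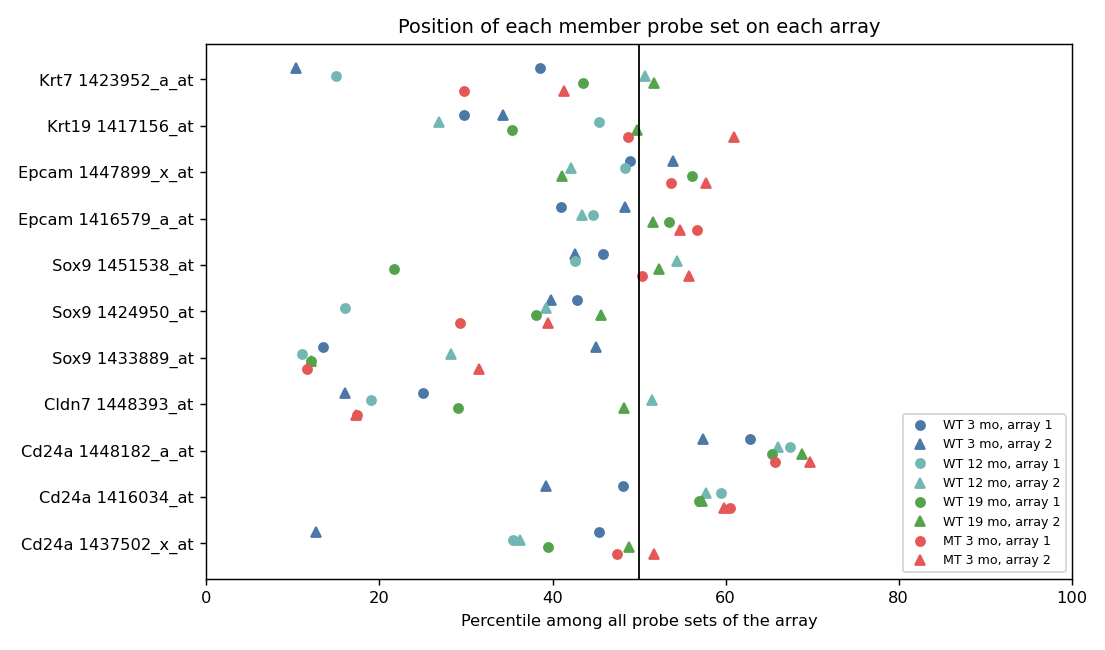
Percentile of each member probe set among all probe sets on the same array, by array, with the array median marked as the 50th percentile. Members lie between the 10.4 and 69.8 percentile, and only Cd24a 1448182_a_at stays above the median on every array.

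To test differences, limma was fitted to log2 signals of the 22519 probe sets in the upper 50% by mean signal, and a difference was called at an adjusted p under 0.05. Only 4 member probe sets, 2 of Cd24a and 2 of Epcam, passed this filter on low signals. The nearest on each side of it were Epcam 1416579_a_at, with a mean log2 signal of 6.29, and Sox9 1451538_at, with 6.02. The lowest mean kept was 6.18, taken over the arrays of all groups. For Epcam 1416579_a_at the group means were below this in WT at 3 months (5.98) and 12 months (5.90). They were above it in WT at 19 months (6.50) and in MT (6.77). Its place among the tested probe sets thus rested on the groups in which it was high. The 7 member probe sets that did not pass the filter are described by their signals alone.

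Krt7 and Krt19, the duct keratins, were low on most arrays. Krt7 (1423952_a_at) read 47.1 and 6.40 in WT at 3 months, 9.38 and 84.1 at 12 months, 55.9 and 90.1 at 19 months, and 31.4 and 55.7 in MT. The 2 arrays of a group differed by up to 8.96-fold, in WT at 12 months, and MT overlapped WT of 3 and 12 months. The 19-month arrays were above both WT arrays of 3 months, which themselves differed by 7.36-fold, and above both MT arrays.

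Krt19 (1417156_at) read 30.9 and 40.3 in WT at 3 months, 60.0 and 29.0 at 12 months, 38.5 and 81.7 at 19 months, and 76.9 and 148 in MT. It was low on 7 of 8 arrays, and the exception was the second MT array. MT was higher than WT at 3 and at 12 months without overlap, while the 19-month arrays overlapped both. Because both 3-month WT arrays were low, the MT level was at least 1.32-fold higher when the WT signals were replaced by the median of their array, against measured geometric means of 107 and 35.3. That bound rested on the second MT array, since the first MT array was itself below the WT medians. Like the other such bounds given below, it leaves out the spread between arrays and is not a confidence limit. In a fit with no filter on low signals the Krt19 difference between MT and WT at 3 months was 1.60 ± 0.65 (log2, SE, n = 2 per group) with an adjusted p of 0.446 in limma.

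Epcam, which encodes a homophilic adhesion protein of epithelial cells, was near the array median, and its 2 probe sets differed in how they ordered the groups. Probe set 1416579_a_at read 52.6 and 75.6 in WT at 3 months, 58.0 and 61.1 at 12 months, 91.6 and 89.5 at 19 months, and 114 and 105 in MT. All 4 arrays of younger and middle-aged WT mice were low, and all 4 of MT and old WT mice were above the median. Probe set 1447899_x_at, whose suffix marks probes that may match other sequences, read 75.5 and 99.4, 68.6 and 58.1, 106 and 53.6, and 97.2 and 123 in the same order of groups. There the 3- and 19-month WT arrays overlapped each other, and MT overlapped both.

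Cldn7 (1448393_at), which encodes a tight junction claudin known to associate with EpCAM, was low on 7 of 8 arrays. It read 23.0 and 10.8 in WT at 3 months, 14.1 and 87.5 at 12 months, 28.7 and 75.5 at 19 months, and 12.0 and 13.0 in MT. The second 12-month array was the only one above its median, and it was 6.20-fold above the other array of its group. MT lay below both older WT groups and overlapped WT at 3 months.

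Sox9, the transcription factor of the duct lineage, had 3 probe sets whose MT minus WT differences at 3 months were not of 1 sign. The brightest, 1451538_at, read 65.2 and 58.5 in WT at 3 months, 53.2 and 102 at 12 months, 17.8 and 92.8 at 19 months, and 82.9 and 110 in MT. There MT was higher than WT at 3 months by at least 1.18-fold, measured against the WT array medians. In a fit with no filter on low signals that difference was 0.63 ± 0.74 (log2, SE), with an adjusted p of 0.859 in limma. Probe set 1424950_at read 57.0 and 51.6, 10.4 and 51.4, 43.7 and 66.6, and 30.7 and 51.5, with MT below WT at 3 months. Probe set 1433889_at read 8.23 and 64.9, 6.36 and 31.4, 7.15 and 7.22, and 6.78 and 35.8, and its arrays of MT and WT at 3 months overlapped. Both of the latter were low on all 8 arrays, so their differences compare signals under the median with each other.

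Cd24a encodes a small surface glycoprotein that is found on duct and progenitor cells and also on B cell precursors, neutrophils and red cell precursors. It had the highest signals of the members, and in all 3 of its probe sets WT at 3 months was the group with the lowest geometric mean. Probe set 1448182_a_at, the brightest, read 162 and 119 in WT at 3 months, 209.8 and 198 at 12 months, 189.6 and 254 at 19 months, and 194 and 255 in MT. Probe set 1416034_at read 72.8 and 50.2, 126 and 122, 112 and 124, and 142 and 139. In both, each of the 6 arrays of other groups was above both arrays of WT at 3 months. The third, 1437502_x_at, read 63.8 and 7.88, 39.1 and 45.3, 46.5 and 77.8, and 71.8 and 90.2, was low on 7 of 8 arrays, and separated MT but not the older WT mice from WT at 3 months. Its lowest mean in WT at 3 months rested on the second array, which was 8.10-fold under the first.

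**Figure D2:**
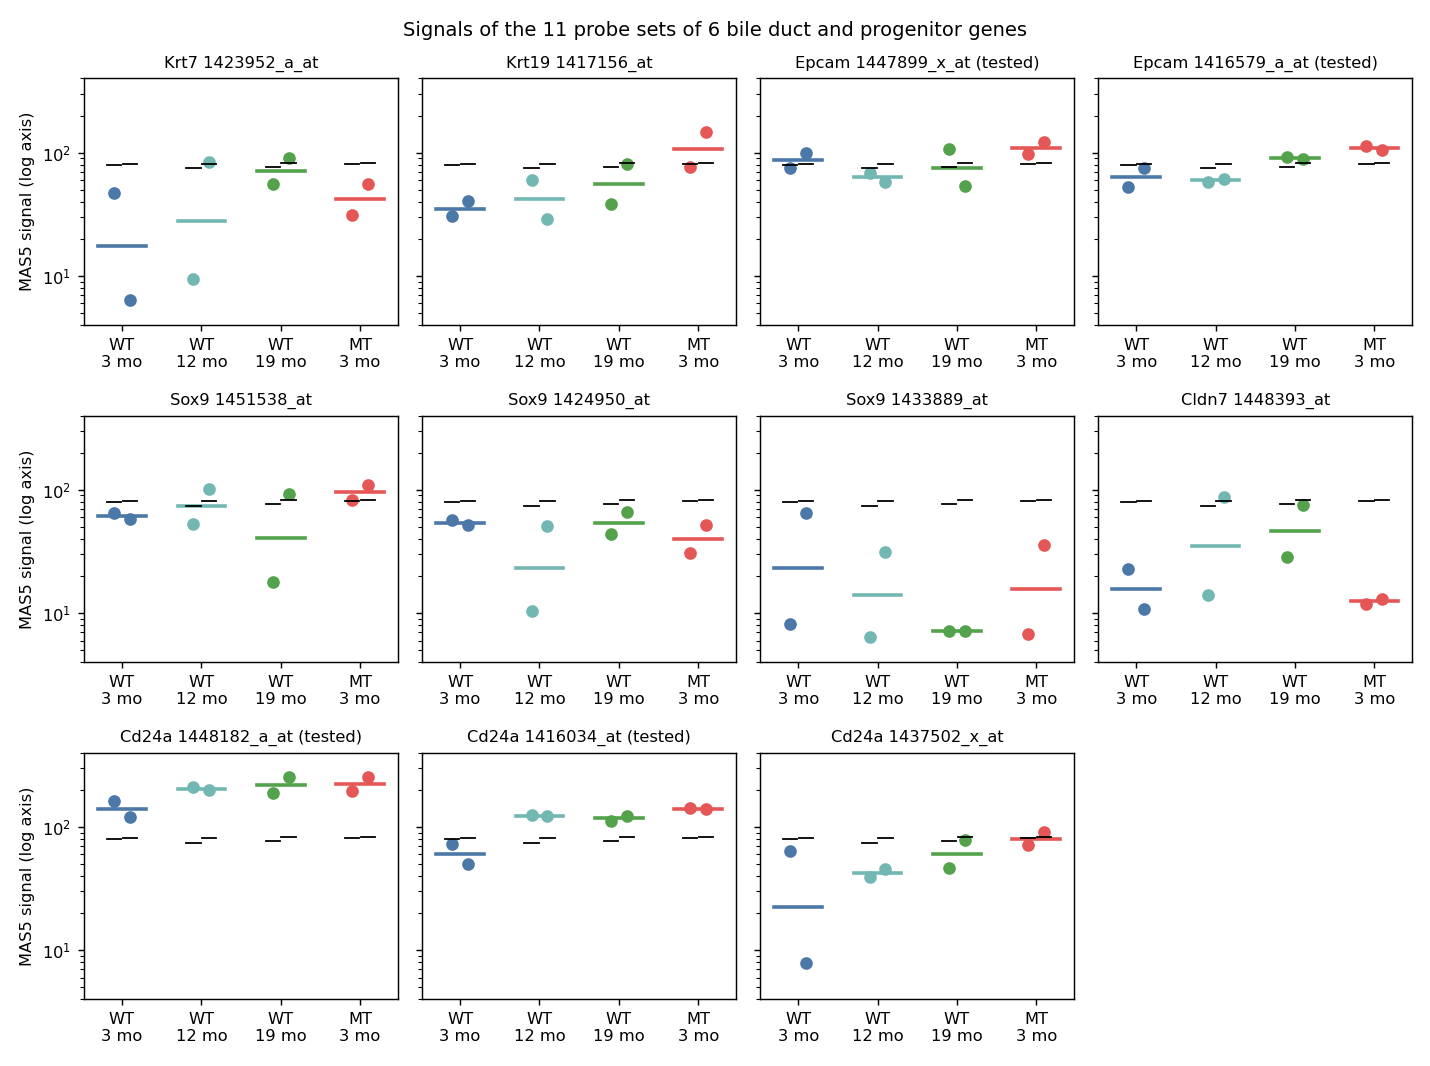
Signal of each member probe set on each of the 8 arrays, on a log axis, with 1 point per array and the groups side by side. Short black lines mark the median of each array and coloured bars the geometric mean of a group. The Cd24a probe sets 1448182_a_at and 1416034_at are lowest in WT at 3 months, while the pairs of Krt7, Sox9 and Cldn7 spread over several fold within a group. The pair of Cd24a 1437502_x_at in WT at 3 months spreads as widely.

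The comparison of MT with WT at 3 months asks what loss of Sirt1 goes with in young liver. Cd24a and Epcam had higher mean signals in MT by both tested probe sets of each, but no difference was called. In limma 0 of 4 tested member probe sets were called, where 0.515% of all tested probe sets were (116 of 22519), and 2 of 4, both of Cd24a, had an unadjusted p under 0.05, as did 13.5% of all tested. Cd24a 1416034_at differed by 1.21 ± 0.32 (log2, SE, n = 2 per group; 95% interval 0.51 to 1.92), with an adjusted p of 0.131 in limma, and since both WT arrays were low there the MT level was at least 1.74-fold higher. Cd24a 1448182_a_at differed by 0.68 ± 0.27 with an adjusted p of 0.313 in limma.

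For Epcam 1416579_a_at the difference between MT and WT at 3 months was 0.79 ± 0.37 on the log2 scale, with an adjusted p of 0.388 in limma. Its 95% interval, -0.03 to 1.61, includes no difference. The level was at least 1.35-fold higher against the WT array medians, a bound that leaves out the spread between arrays. For 1447899_x_at the difference was 0.34 ± 0.43 with an adjusted p of 0.799 in limma, and its arrays overlapped. Of the 11 member probe sets, 6 were higher and 1 was lower in MT with no overlap of arrays, where 40.1% of all probe sets on the array did not overlap in 1 direction or the other (21% higher and 19.2% lower). For 2 arrays against 2 an exact permutation test cannot give a two-sided p under 0.333. The median difference of the 11 was 0.68, against 0.02 over all tested probe sets. The methods' t-test was run at the study's own p and fold thresholds, on the tested probe sets and without the study's filter on absent calls. It passed Cd24a 1416034_at here (3.95% of all tested passed). No member passed at 12 or 19 months against 3 months (2.23% and 3.33%) or in MT against 19-month WT (2.96%). Epcam 1416579_a_at passed in MT and in 19-month WT against 12-month WT (2.69% and 2.33%). After Benjamini-Hochberg adjustment that test passed 0 of all 22519 tested probe sets in every comparison. Its 0 among the members therefore says nothing on the members.

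The comparison of WT at 12 and at 19 months with WT at 3 months asks what goes with age. Both used the same 2 arrays of 3-month WT mice as the comparison above, so their values are given side by side and are not independent of it. At 12 months 0 of 4 tested member probe sets were called by limma, where 0.0133% of all tested were, and 1 had an unadjusted p under 0.05, where 8.57% of all tested did. Cd24a 1416034_at was 1.04 ± 0.32 above its level at 3 months, with an adjusted p of 0.418 and at least 1.54-fold. Cd24a 1448182_a_at was 0.55 ± 0.27 above it, with an adjusted p of 0.620. Epcam differed by -0.08 ± 0.37 for 1416579_a_at, with an adjusted p of 0.973, and by -0.46 ± 0.43 for 1447899_x_at, with an adjusted p of 0.830.

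At 19 months 0 of 4 tested member probe sets were called by limma, where 0.0355% of all tested were, and 2 had an unadjusted p under 0.05, both of Cd24a, where 12.5% of all tested did. Cd24a 1416034_at was 0.96 ± 0.32 above its level at 3 months with an adjusted p of 0.291, and at least 1.46-fold. Cd24a 1448182_a_at was 0.66 ± 0.27 above it, with an adjusted p of 0.368, and Epcam 1416579_a_at 0.52 ± 0.37, with an adjusted p of 0.609. Epcam 1447899_x_at differed the other way, by -0.20 ± 0.43, with an adjusted p of 0.895. Of the 11 member probe sets 5 were higher and 1 was lower at 19 months with no overlap, where 41.6% of all probe sets did not overlap (21% higher and 20.5% lower). At 12 months 2 were higher and 2 were lower, where 37.2% did not overlap (18.1% higher and 19.1% lower).

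**Figure D3:**
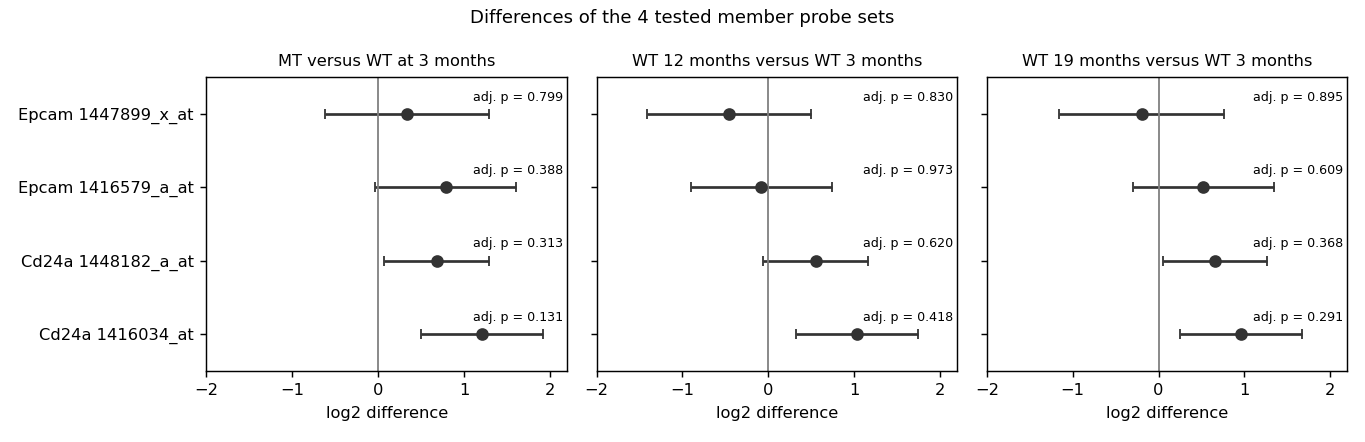
Log2 differences of the 4 tested member probe sets in the 3 comparisons with WT at 3 months; points are limma estimates, bars are 95% confidence intervals, and the adjusted p of each is printed. Intervals of Cd24a 1416034_at lie above 0 in all 3 panels, from 0.25 at the lowest, and no adjusted p is below 0.131.

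Set against the older WT groups, MT livers showed no called member either. Limma called 0 of 4 for MT against WT at 12 months, where 0.457% of all tested probe sets were called, and 0 of 4 against WT at 19 months, where 0.275% were. At an unadjusted p under 0.05 there were 1 of 4 (13.2% of all tested) and 0 of 4 (13%). The lowest adjusted p was that of Epcam 1416579_a_at against WT at 12 months, 0.351, for a difference of 0.87 ± 0.37 and a level at least 1.40-fold higher. Its difference from WT at 19 months was 0.27 ± 0.37 with an adjusted p of 0.803 (95% interval -0.55 to 1.09). Cd24a 1448182_a_at differed from WT at 19 months by 0.02 ± 0.27 (95% interval -0.59 to 0.63) and Cd24a 1416034_at by 0.25 ± 0.32 (-0.46 to 0.96). Between WT at 19 and at 12 months limma called 0 of 4, and 0% of all tested, with 0 of 4 at an unadjusted p under 0.05 where 10.7% of all tested were, and the largest difference was 0.60 ± 0.37 for Epcam 1416579_a_at.

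By geometric mean, the order for Cd24a 1416034_at was WT at 3 months (60.4), WT at 19 months (118), WT at 12 months (124) and MT (140.2). The order for Epcam 1416579_a_at was WT at 12 months (59.5), WT at 3 months (63.0), WT at 19 months (90.5) and MT (109). No neighbours in either order differed at an adjusted p under 0.05 in limma, and the wide step from 60.4 to 118 is the 19-month difference given above. The tested genes whose pattern over the 8 arrays was most like that of Cd24a 1416034_at were Phka1, Rab11fip2 and Gpr135, each with a mean absolute log2 difference of 0.14 from it after each was centred on its own mean. Phka1, a phosphorylase kinase subunit, read 89.6 and 87.5, 158 and 132, 121 and 142, and 177 and 165 in the order of groups used above.

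The spread within groups differed between the members. Over the 11 probe sets the median absolute log2 difference between the 2 arrays of a group was 0.52 in WT of 3 months, 0.94 in WT of 12 months, 0.69 in WT of 19 months and 0.39 in MT. For all probe sets under the filter these medians were 0.90, 0.93, 0.85 and 0.94, and for the tested probe sets 0.19, 0.26, 0.22 and 0.26. The members spread more within groups than tested probe sets in each of the 4 groups, as did all probe sets under the filter, where most of the 11 lie. Against the probe sets under the filter, the members spread less in WT of 3 and 19 months and in MT. In WT of 12 months they spread about as much (0.94 against 0.93). The 11 include the 4 tested probe sets, which lie above the filter, so this does not compare like with like.

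Cells other than duct cells also carry Cd24a, and the levels of their markers are given here for the same groups. Of the 6 measured neutrophil genes, 3 were tested and none was called against WT at 3 months. The summed signal of the 6 was 819 to 855 in WT at 3 months, 928 to 1102 at 12 months and 1629 to 2026 at 19 months. In MT it was 1186 to 1485. Most of it came from S100a8 and S100a9 in each group, and Camp and Ltf were low on all 8 arrays. S100a9, a neutrophil calcium-binding protein, differed by 0.97 in MT (adjusted p = 0.0981), 0.40 at 12 months (adjusted p = 0.674) and 1.42 at 19 months (adjusted p = 0.0828). The summed signal of the 5 measured B cell genes was 877 to 1181, 2587 to 4232, 5866 to 7085 and 956 to 1324 in the order of groups used above. Most of it at 12 and 19 months came from the immunoglobulin heavy chain genes Ighm and Igha, while Cd79a was low on all arrays. Cd79b read 143 and 145, 99.5 and 128, 151 and 206, and 96.3 and 156. Ms4a1 read 119 and 85.2, 61.8 and 97.9, 140 and 155, and 118 and 96.7. Of the 4 tested B cell genes, 2 had a difference above 0 in MT, 2 at 12 months and 4 at 19 months. Ighm read 329 and 581, 2341 and 803, 4317 and 1986, and 213 and 425, and was not called (adjusted p = 0.463 at 12 months and 0.151 at 19 months). Igha differed by 0.95 in MT (adjusted p = 0.0757), and was called higher at 12 months (2.49, adjusted p = 0.00902) and at 19 months (3.34, adjusted p = 0.00065). The 12-month call did not hold when the first or the second 3-month WT array was left out (highest adjusted p 0.0604) or without a variance trend, and the other Igha probe sets were not called there, while the 19-month call held in all 8 fits without 1 array.

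Of the 4 measured erythroid genes only Alas2 was tested, with differences of 0.67 in MT (adjusted p = 0.359), 0.60 at 12 months and 0.78 at 19 months. Among the untested, Slc4a1 was higher in MT without overlap (0.94), and Hba-a1 (-1.79) and Ermap (-0.67) were lower. The summed erythroid signals were 233 to 263, 330 to 428, 304 to 415 and 306 to 321. Of the Kupffer cell and macrophage genes 11 were tested and none was called, with medians of -0.26 in MT, -0.13 at 12 months and 0.64 at 19 months. The 19-month median was 0.36 without the second 19-month array, with 10 of 11 above 0, an alternative chosen after seeing the data. The genes of this list with the largest moderated t were C1qb in MT (-0.38, adjusted p = 0.441), Cd5l at 12 months (-0.55, adjusted p = 0.715) and Adgre1 at 19 months (0.79, adjusted p = 0.190).

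The hepatocyte, T and NK cell, stellate cell and endothelial lists had no call in these 3 comparisons. Nearest to one in MT were Stab2, a scavenger receptor of sinusoidal endothelium (-1.04, adjusted p = 0.0501), and Gzma, a granzyme of cytotoxic cells (-2.03, adjusted p = 0.0528). Lyve1, of the same endothelial list as Stab2, went the other way in MT (1.44, adjusted p = 0.0613 in limma). Of the 6 tested endothelial genes 2 had a difference above 0 in MT. The genes of largest moderated t in the other lists in MT were Des (0.36, adjusted p = 0.704) and Tat (0.49, adjusted p = 0.368). At 12 months they were Gzmb (-0.92), Lum (-0.46), Lyve1 (1.48) and Hnf4a (0.28), with adjusted p of 0.189 or above. At 19 months they were Gzma (-1.98), Col3a1 (-0.76), Pecam1 (0.67) and Cps1 (-0.32), with adjusted p of 0.123 or above. In the exocrine pancreas list 0 of the 7 measured genes passed the filter. The part of these cells in the Cd24a signals was not tested.

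Of 16 other biliary genes listed, 14 were measured and 9 tested, and 1 was called in MT, Atp1b1, a sodium pump subunit that hepatocytes also carry. Atp1b1 read 3090 and 2622 in WT at 3 months, 3387 and 2822 at 12 months, 4692 and 4131 at 19 months, and 5147 and 5814 in MT, a difference of 0.94 ± 0.15 in MT (adjusted p = 0.0378). That call was lost in 6 of 8 fits without 1 array, and its other tested probe sets were not called. It was also lost with equal medians, with only the groups compared and without a variance trend. The median difference of the 9 was 0.15 in MT, 0.02 at 12 months and -0.04 at 19 months (without 1 array, -0.07 to 0.43 in MT, -0.20 to 0.07 at 12 months and -0.18 to 0.11 at 19 months), against 0.02, -0.0034 and 0.02 over all tested probe sets. Of these genes Aqp1, a water channel, had the largest moderated t at 12 months (-0.28, adjusted p = 0.654) and Atp1b1 at 19 months (0.63, adjusted p = 0.205).

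None of the 7 tested of 13 progenitor and fetal liver genes was called in these 3 comparisons. Prom1, which encodes the surface protein prominin 1 of progenitor cells, read 1650 and 1579 in WT at 3 months, 1266 and 571 at 12 months, 826 and 321 at 19 months, and 461 and 305 in MT. Its MT arrays were below all others but the second at 19 months, and the difference was -2.11 with an adjusted p of 0.0813. Of the 7, 5 had a difference above 0 in MT, among them Tnfrsf12a, the TWEAK receptor (1.51, adjusted p = 0.114), and Igf2 (1.56, adjusted p = 0.364), both without overlap. At 12 months Alcam had the largest moderated t (0.40, adjusted p = 0.519), and at 19 months Tnfrsf12a (1.34, adjusted p = 0.238). The medians of the 7 were 0.28 in MT (0.04 to 0.49 without 1 array), -0.41 at 12 months and 0.44 at 19 months.

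Among the 13 tested of 15 genes of the Notch and Hippo pathways, which guide duct formation, none was called, and their medians were 0.13, -0.04 and 0.05. Notch1, a receptor, had the smallest adjusted p in MT, 0.0762, for a difference of -0.69, and Ccn1 at 12 months (-0.68) and Jag1 at 19 months (-0.58) had 0.293 and 0.373. The keratins shared with hepatocytes, Krt8 and Krt18, were not called in any of the 3 comparisons, and Krt18 differed by 0.24 in MT (adjusted p = 0.474) and -0.12 at 12 months (adjusted p = 0.854), and Krt8 by -0.40 at 19 months (adjusted p = 0.346). Of 10 tested junction genes, Cldn1, a claudin of hepatocyte tight junctions, was called lower in MT. It read 4276 and 3733 in WT at 3 months, 2694 and 2072 at 12 months, 2706 and 3308 at 19 months, and 1553 and 1259 in MT, a difference of -1.51 ± 0.19 (adjusted p = 0.0122). Leaving out the first or the second WT array of 3 months, or the second MT array, ended this call (highest adjusted p 0.125), and its second tested probe set differed by -0.93 and was not called. At 12 months Cdh1 (-2.47, adjusted p = 0.277) and at 19 months Cldn3 (0.79, adjusted p = 0.126) had the largest moderated t of the junction genes. Of 5 tested integrin genes of osteopontin receptors none was called, and Itgb5 differed by -0.51 in MT (adjusted p = 0.181) and Itgav by -0.21 at 12 months (adjusted p = 0.781) and -0.41 at 19 months (adjusted p = 0.358).

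**Figure D4:**
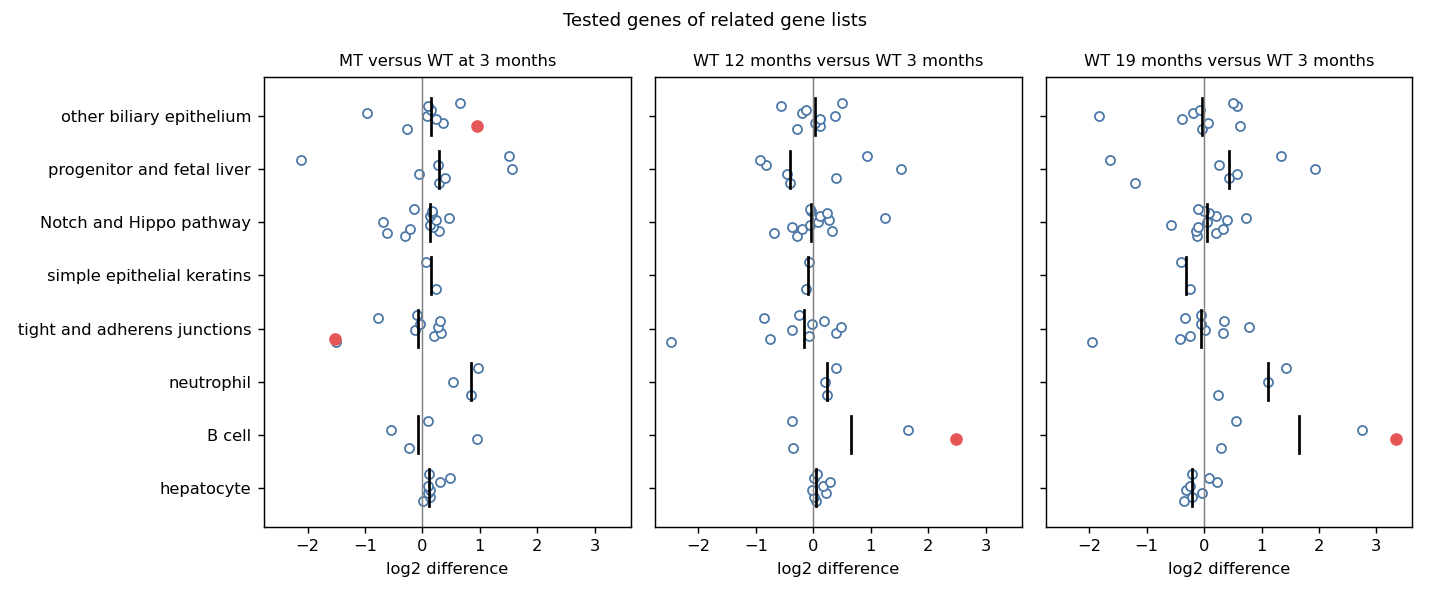
Log2 differences of the tested genes of the related lists in the 3 comparisons with WT at 3 months, 1 point per gene, filled where called, with the list median as a bar. Medians of the duct, progenitor, Notch and Hippo, keratin and junction lists lie between -0.41 and 0.44, the genes called in MT are Atp1b1 and Cldn1, and the gene called at 12 and 19 months is Igha.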

How the data were processed

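RNA of whole liver was hybridised to Affymetrix mouse arrays, 2 per group, 8 in all. The authors deposited MAS5 signal intensities for 45101 probe sets, scaled so that the trimmed mean was near 500 on each array, and this scaling was kept. After 64 control probe sets were left out, 34945 of 45037 carried 1 gene symbol, 932 several and 9160 none. Signals below 1 were set to 1, and log2 values of the upper 50% of probe sets by mean were fitted in limma 3.58.1 (R 4.3.3) with all 4 groups, eBayes with a trend, and Benjamini-Hochberg adjustment within each comparison. Detection calls were not used. Every member probe set is described, and a gene is represented by its brightest one. Of each other list each called gene is named, or, where none was, that of largest moderated t. The members and lists were chosen with earlier results of these data known. Of 147 list genes 132 had a probe set of their own. A level described as "at least" replaces the low group's signals by their array median. It takes no account of the spread between arrays and is not a confidence limit. The fit was tested on simulated data. Alternative floors, offsets, filters, normalizations, variance priors, sample sets and the methods' t-test were tried.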

Additional observations from a re-analysis of the deposited data

How the results depend on the processing

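The number of member probe sets called was 0 in all 6 comparisons under every alternative run: no filter or a stricter one, a floor or an offset of 16, quantile or equal-median scaling, only the groups compared, other variance priors, the methods' t-test after adjustment, a threshold of 0.1, gene means and leaving out each array. The methods' t-test after adjustment called 0 of all tested probe sets in every comparison, so its 0 says nothing on the members. The stricter filter kept the upper 25% of probe sets by mean signal and left no member to test, so its 0 was fixed in advance. Of the members, only Cd24a was tested by gene means. The replicate numbers did not pair the arrays (correlations of deviations between -0.03 and 0.14). With the replicate number as a block 0 members were called in each comparison. The calls over all probe sets then moved from 8 to 25 for WT at 19 against 3 months and from 116 to 129 for MT against WT at 3 months. Over all probe sets the calls for MT against WT at 3 months ranged from 13 to 255 without 1 array and from 0 to 413 under the other settings.

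Cd24a 1416034_at in MT against WT at 3 months stayed between 0.95 and 1.48 (log2) without 1 array. Under the other settings that tested it, the difference was 1.03 to 1.21 and was not called. Several differences turned sign without 1 array, large ones of untested probe sets among them: Cd24a 1437502_x_at ranged from -0.60 to 2.42 at 12 and from -0.086 to 2.93 at 19 against 3 months, Krt7 from -0.17 to 2.71 in MT against 3 months and Cldn7 from -0.16 to 2.47 at 12 against 3 months. Of the tested, Epcam 1416579_a_at at 12 against 3 months ranged from -0.34 to 0.18 without 1 array, turning without the second 3-month WT array. Epcam 1447899_x_at ranged from -0.69 to 0.30 at 19 against 3 months, turning without the second array of either group, and from -0.24 to 0.75 at 19 against 12 months, turning without the first 19-month array. Cd24a 1448182_a_at ranged from -0.10 to 0.32 at 19 against 12 months, turning without the second 19-month array, from -0.067 to 0.33 in MT against 12 months, turning without the second MT array, and from -0.19 to 0.23 in MT against 19 months, turning without the first 19-month or the second MT array and, at -0.027, with equal medians. The cause was not tested.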
